A study of Saccharomyces cerevisiae with 12 samples.

Results

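The response of budding yeast (Saccharomyces cerevisiae) carrying the histone H3 S10D construct to 3 hours of estradiol (E2) was measured by poly(A) RNA sequencing, against the same strain kept for 3 hours with ethanol (EtOH), the vehicle. The comparison holds the 6 libraries labelled S10D, 3 with E2 and 3 with EtOH, of 12 in the study. Of 7127 annotated features, 5829 passed the count filter and were tested. The other 6 libraries come from a reference strain under the same 2 conditions and are used below to show where the S10D strain differed.

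Serine 10 of histone H3 is phosphorylated in mitosis by the kinase Aurora B, which is Ipl1 in yeast, and the phosphatase Glc7 removes the mark. An aspartate in its place carries a negative charge and is commonly used to imitate the phosphorylated form. Estradiol has no receptor of its own in yeast; here it switches on a Cre recombinase fused to a hormone-binding domain, and Cre removes DNA that lies between lox sites, which in these strains is the centromere of chromosome IV, CEN4. A chromosome that has lost its centromere cannot be pulled to the daughter cell by the spindle in the usual way.

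Per its genotype label, the S10D strain is MATa with loxCEN4lox:KanMX, GDP-creEDB78:LEU2 and hht2-hhf2::[HHT-S10D-HHFS]-URA3. Its label further lists the operator arrays lys4::LacO:hphNT1 and trp1::TetO:TRP1, the fluorescent repressors TetR-mRFP and his3::LacR-GFP:HIS3, and the alleles leu2-x, Ade1 and bar1-delta. The reference strain is MATa and carries GDP-creEBD78:LEU2 and lox-CEN4-lox:KanMX, with the auxotrophic alleles met15-delta-0, ura3-delta-0, leu2-delta-0 and, for histidine, his3-delta-1. Both strains thus carry the lox sites and Cre, and they differ at many loci beside the histone. No library from a strain without lox sites is among the 12, so that effects of estradiol itself, of active Cre and of the loss of CEN4 cannot be told apart. Whether replicate libraries were grown as separate cultures is not stated in the labels, so the p-values measure the spread between these libraries, which may be technical.

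Total counts per library were 9362173 to 11032505 in the S10D strain and 10262162 to 11806239 in the reference strain, over 7127 annotated features. The S10D libraries were tightly matched: a chi-square test of their counts gave 1.40 to 2.46 per degree of freedom between libraries of a group, and the biological coefficient of variation in edgeR was 2.35%. In the reference strain it was 8.53%, and its EtOH replicate 3 stood apart with 32 and 33.1 per degree of freedom against the other 2 EtOH libraries, so counts of reference calls in the main lists are also given without that library. Reference values of single genes rest on all 3 EtOH libraries unless stated. URA3, the marker of the histone construct, lay between 131 and 142 CPM in the 6 S10D libraries and at 0.41 CPM or less in the 6 reference libraries. CPM stands throughout for a gene's counts scaled to library size (edgeR's cpm function with TMM factors), with no correction for gene length. BAR1, the pheromone protease that the label gives as deleted, was counted at 354 ± 2.29 CPM with EtOH and 332 ± 8.42 CPM with E2 (SD, n = 3 each) in the libraries labelled S10D, which goes against that part of the label.

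The targeted histone genes were measured in every library. HHT2, an H3 gene at the edited locus, had 265, 247 and 246 CPM with EtOH and 244, 225 and 234 CPM with E2. HHF2, the H4 gene beside it, had 25.1, 23.3 and 28.1 CPM with EtOH and 24.7, 20.3 and 24.1 CPM with E2. The second H3 gene, HHT1, had 1100, 1094 and 1122 CPM with EtOH and 1133, 1049 and 1108 CPM with E2. HHT2 fell by 0.11 on the log2 scale (SE 0.04, edgeR quasi-likelihood adjusted p = 0.0207), while HHF2 (-0.15, adjusted p = 0.224, edgeR) and HHT1 (-0.01, adjusted p = 0.81, edgeR) did not pass the test. The HHT2 call was kept in 8 of 15 other settings. It was lost with DESeq2, with all 12 libraries in the fit (edgeR adjusted p = 0.303) and with a gene length offset (0.0669). Leaving out S10D EtOH replicate 1, E2 replicate 2 or E2 replicate 3 also lost it. In the reference strain with EtOH the same genes lay at 890 to 980 CPM for HHT2, 529 to 671 CPM for HHF2 and 581 to 772 CPM for HHT1, so that the edited locus gave fewer reads in the S10D libraries. The copies are similar in sequence, and how reads matching several copies were counted is not given in the sources used here. Gene counts cannot show the serine or aspartate codon itself.

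Of 5829 genes tested, 1370 (23.5%) passed an adjusted p under 0.05 in edgeR's quasi-likelihood test, 670 higher (11.5%) and 700 lower (12%) with E2. The changes were small. Among the called genes 68 changed by at least 0.5 on the log2 scale, 47 higher and 21 lower, and 5 changed by at least 1. The median absolute log2 fold change over all tested genes was 0.076, and 0.18 in the reference strain. In 2133 genes (36.6%) the E2 libraries did not overlap the EtOH libraries, 1043 higher (17.9%) and 1090 lower (18.7%). With the dispersion estimated from all 12 libraries, whose coefficient of variation was 6.31%, 273 of 5990 genes were called, 145 higher and 128 lower. Of these, 271 were among the 1370, each in the same direction. Counts from the 12-library fit in the lists below read against those totals. DESeq2 on the 6 libraries called 881.

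Among called genes whose mean reached 10 CPM and whose conditions did not overlap, YNL194C, SHC1, SGA1 and INO1 had the largest increases. YNL194C, which encodes an integral membrane protein of the SUR7 family (chromosome XIV, 272710 to 273615, R64), had 15.1, 20.3 and 18.6 CPM with EtOH and 44.5, 40.9 and 40.7 CPM with E2. All 3 E2 libraries lay above all 3 EtOH libraries, and the gene rose by 1.23 on the log2 scale (SE 0.08, edgeR adjusted p = 3.46e-12). SHC1, an activator of chitin synthase III known from sporulation, had 9.58, 9.72 and 9.05 CPM with EtOH and 17.5, 18.9 and 19.6 CPM with E2. It rose by 0.98 (SE 0.10, edgeR adjusted p = 3.13e-08). INO1, which makes inositol phosphate, went from 20.2, 21.8 and 20.1 CPM to 35.6, 33.1 and 35.2 CPM, a rise of 0.74 (SE 0.07, edgeR adjusted p = 1.01e-08). SGA1, the sporulation glucoamylase, rose by 0.78 from 9.71 ± 2.02 to 16.6 ± 0.75 CPM (SD, n = 3 each).

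The increases next in size among these genes were spread over many functions. YSR3, a phosphatase of sphingoid long-chain base phosphates, rose by 0.67 and CUR1, a sorting factor for misfolded proteins, by 0.63. TSL1, the large regulatory subunit of trehalose synthase, had 389, 398 and 388 CPM with EtOH and 582, 616 and 612 CPM with E2, and rose by 0.62 (SE 0.03, edgeR adjusted p = 5.95e-16). SIT1, a transporter of iron-loaded siderophores, rose by 0.61 from 40.5 ± 4.56 to 61.7 ± 3.37 CPM. AMA1, the meiotic activator of the anaphase-promoting complex, rose by 0.57, as did MGA1, a relative of heat shock transcription factors, while YNR014W rose by 0.59 and TDA6 by 0.68. Of these, TDA6 lost its call without S10D EtOH replicate 2 (edgeR adjusted p = 0.108) or E2 replicate 2 (0.064), and MGA1 without EtOH replicate 1 (log2 fold change 0.37, edgeR adjusted p = 0.0565) or E2 replicate 2 (0.0606). In the 12-library fit MGA1 and YNR014W were not called (edgeR adjusted p = 0.333 and 0.322).

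REA1 and TRA1 were the long genes of the group, and a trend with gene length described further on bears on both. REA1, a very large ATPase of ribosome assembly (chromosome XII, 349006 to 363738, R64), had 545, 565 and 591 CPM with EtOH and 827, 973 and 979 CPM with E2. Its rise was 0.71 (SE 0.08, edgeR adjusted p = 0.00322), and 0.52 with a gene length offset in the fit. TRA1, the scaffold shared by the SAGA and NuA4 acetyltransferase complexes, rose by 0.60 from 534 ± 35.7 to 811 ± 78.3 CPM, and by 0.44 with the length offset; without EtOH replicate 2 its edgeR adjusted p was 0.0632.

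**Figure D1:**
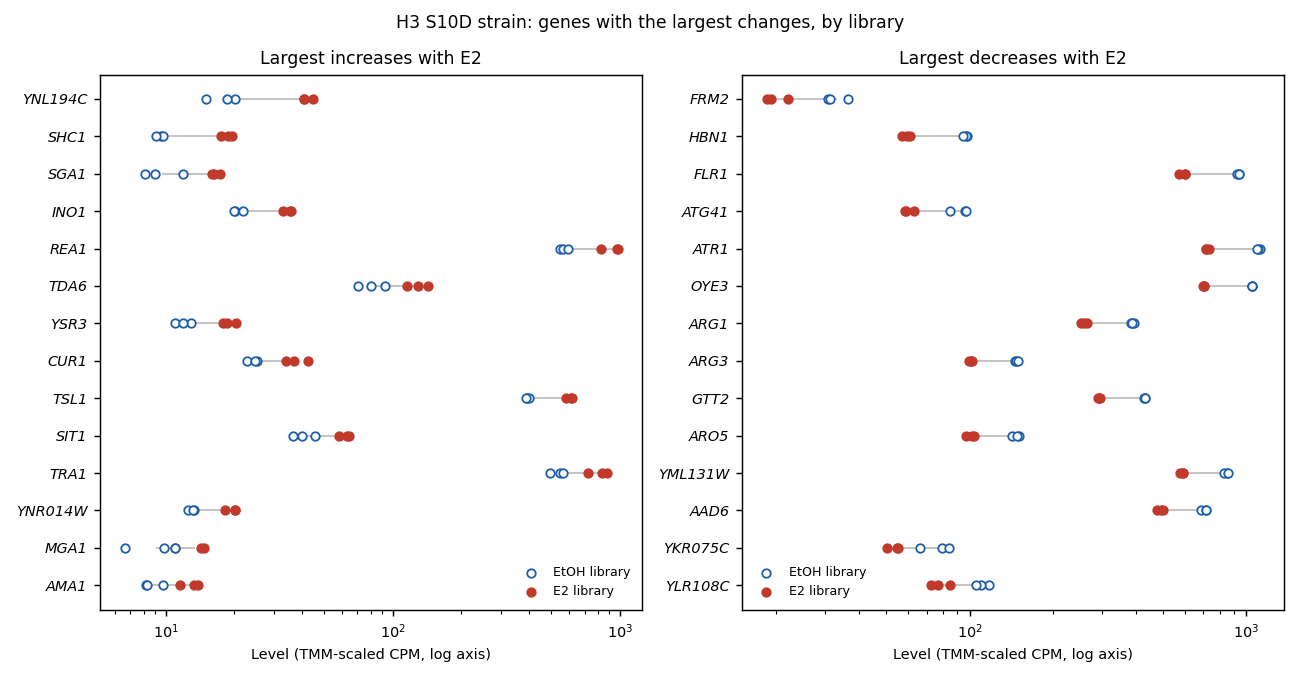
Level of each gene in each S10D library, in TMM-scaled CPM on a log axis, for the 14 largest increases and the 14 largest decreases among called genes whose mean reached 10 CPM and whose conditions did not overlap. Open circles are EtOH libraries, filled circles E2 libraries, and a grey line joins the 2 means; FLR1, ATR1 and OYE3 show libraries of 1 condition lying almost on top of each other.

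Oxidoreductases, efflux pumps and arginine enzymes were among the 14 largest decreases. FLR1, a multidrug efflux pump and target of the oxidative stress factor Yap1 (chromosome II, 252563 to 254209, R64), had 943, 929 and 940 CPM with EtOH and 573, 599 and 598 CPM with E2. It fell by 0.67 on the log2 scale (SE 0.03, edgeR adjusted p = 4.39e-17). ATR1, a second efflux pump of the same family, went from 1118, 1104 and 1094 CPM to 714, 731 and 716 CPM, a fall of 0.62 (SE 0.03). OYE3, an NADPH oxidoreductase of the old yellow enzyme family, had 1045, 1047 and 1047 CPM with EtOH and 704, 700 and 699 CPM with E2, and fell by 0.58 (SE 0.03, edgeR adjusted p = 1.34e-16). The 2 conditions were far apart in each of these genes compared with the spread of 3 libraries.

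FRM2 and HBN1, nitroreductase-like neighbours on chromosome III, fell by 0.72 and 0.70. FRM2 had 36.4, 30.7 and 31.3 CPM under EtOH and 19.2, 18.5 and 22.1 CPM under E2. ATG41, an autophagy factor, fell by 0.62 from 92.8 ± 6.84 to 60.2 ± 2.53 CPM. GTT2, a glutathione transferase, fell by 0.55, YML131W, a putative reductase, by 0.53 and AAD6, a putative aryl-alcohol dehydrogenase, by 0.53. ARO5 fell by 0.54, YKR075C by 0.52 and YLR108C by 0.51; YKR075C was not called in the 12-library fit (edgeR adjusted p = 0.112). The AAD genes are close copies of each other, and reads may be split between them.

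Yap1 is the transcription factor that answers thiol-reactive and oxidising agents, and its known targets include reductases and efflux pumps. Of 25 tested genes in a list of 28 oxidoreductase and Yap1-type detoxification genes, 19 fell, 0 rose and 6 did not pass, against 12% of all tested genes called lower. Their median log2 fold change was -0.34, against 0.0009 over all genes tested, and 2 of the 25 lay above 0. Summed over the list, the 3 EtOH libraries held 13162, 13076 and 13197 CPM and the 3 E2 libraries 9904, 9833 and 9810 CPM. The 12-library fit called 16 of them lower, against 128 of all 5990 genes in that fit. Among the reference libraries 8 of the 25 rose and 0 fell, with a median of 0.16, and 12 rose and 1 fell when its EtOH replicate 3 was left out. By the test of the difference itself, the S10D minus reference log2 fold change was below 0 for 18 of 25, against 10.6% of all genes, and for 18 also without that library. Calls over all genes also rose without it. The reference strain then had 1423 higher and 1395 lower of 5979, against 16.4% and 14.6% with it. The difference was then below 0 for 1002 and above 0 for 992 of 6018. Such counts in later lists read against these. A negative difference covers genes that fell further in the S10D strain, such as FLR1 (-0.67 against -0.11, the latter not past the test). It also covers genes that fell there and rose in the reference strain, such as YML131W (-0.53 against 0.41). The list was drawn up with these results known.

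Some promoters of the group show the sequence bound by Yap1. The motif TTACTAA (either strand) lay within 300 bases before the start codon in 9 of 24 promoters of the list, in 103 of 690 promoters of all genes called lower (14.9%), in 41 of 659 called higher (6.22%) and in 455 of 5571 promoters searched (8.17%). None of the motifs searched here contains another of them. The promoter of OYE3 (chrXVI:227372-227671, minus strand, RefSeq sequence of build R64, 5′ to 3′, ending at the base before the start codon) holds 2 matches, in capitals, that begin 212 and 148 bases before the start, the first of them on the opposite strand. The promoter of FLR1 holds no match to TTACTAA in this window, and no other form of the Yap1 site was searched.
OYE3 promoter: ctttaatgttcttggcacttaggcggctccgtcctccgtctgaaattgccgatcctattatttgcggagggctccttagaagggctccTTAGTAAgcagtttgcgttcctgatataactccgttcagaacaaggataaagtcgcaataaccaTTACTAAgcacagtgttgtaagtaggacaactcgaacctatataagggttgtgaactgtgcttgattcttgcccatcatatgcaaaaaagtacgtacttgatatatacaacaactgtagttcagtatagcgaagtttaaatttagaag

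Thioredoxin, glutathione and peroxide defence genes were the next list examined. Of 30 tested, 15 fell and 1 rose, against 12% and 11.5% of all genes, with a median of -0.12; 7 were called lower in the 12-library fit. The reference strain had 7 higher and 2 lower (18 and 2 without EtOH replicate 3). GPX2, a glutathione peroxidase, fell by 0.48 from 37.7 ± 1.97 to 27.1 ± 0.53 CPM. SRX1, the sulfiredoxin that repairs oxidised peroxiredoxins, fell by 0.38, TRX2, a cytosolic thioredoxin, by 0.37 and CCS1, the copper chaperone of superoxide dismutase, by 0.34. In the reference strain SRX1 rose by 1.08, and the difference between strains was -1.46 (SE 0.12, edgeR adjusted p = 3.07e-06). The differences of CCS1 (-0.16, edgeR adjusted p = 0.0691) and GPX2 (-0.30, edgeR adjusted p = 0.405) did not pass. Of the pleiotropic drug efflux genes, a separate set controlled by Pdr1, 4 of 18 rose and 2 fell; PDR5, its main pump, rose by 0.29 from 616 ± 11.7 to 755 ± 12.3 CPM.

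**Figure D2:**
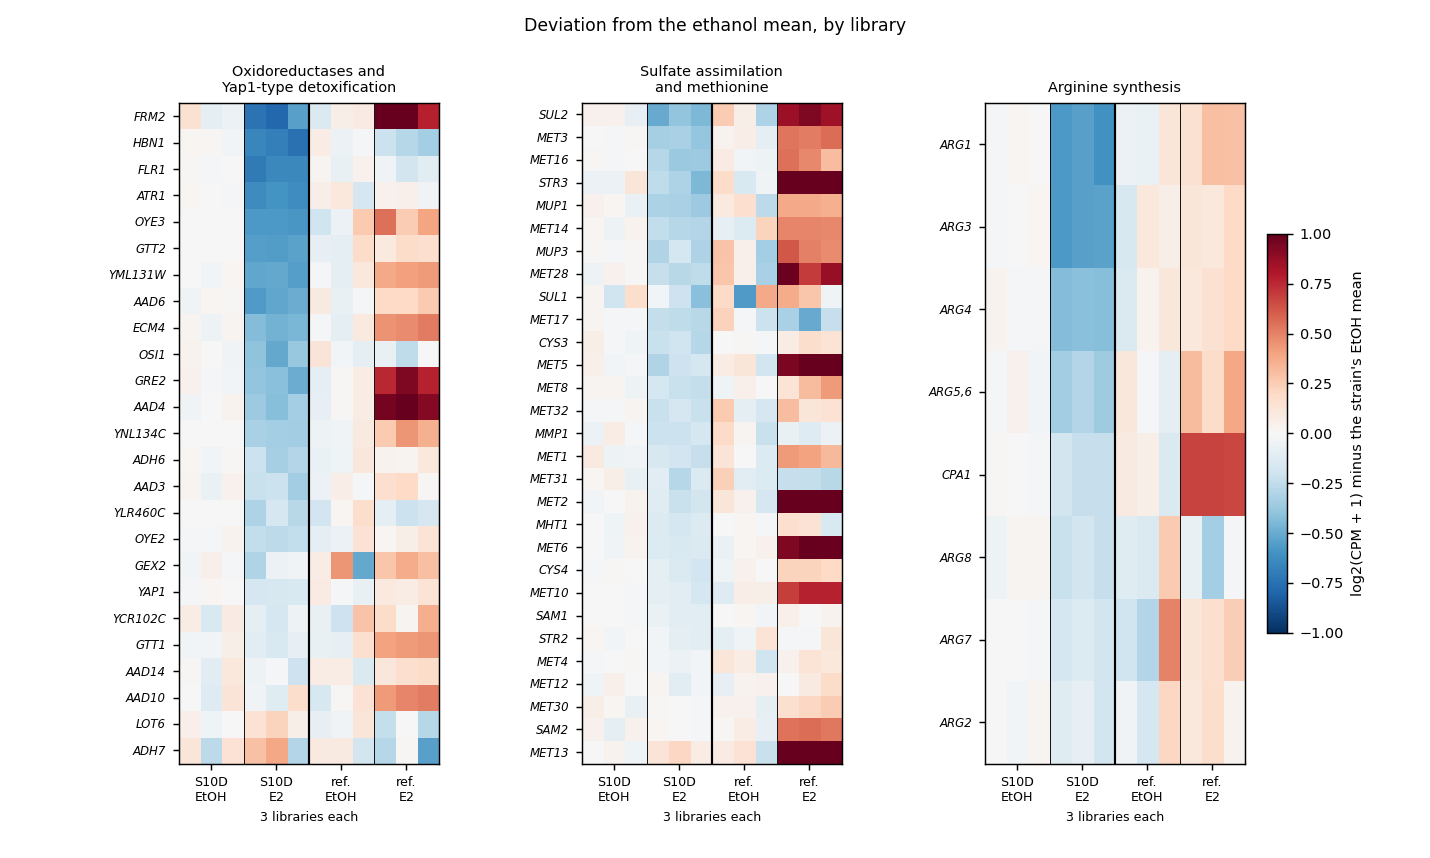
Deviation of log2(CPM + 1) from the mean of the same strain's EtOH libraries, for members of 3 lists tested in the S10D strain, 1 member left out (rows, ordered by their S10D fold change) in the 12 libraries (columns, 3 per group). The S10D E2 columns are blue for nearly all members, and the reference E2 columns are red for many of them, among them FRM2, OYE3, YML131W, SUL2 and STR3.

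Genes of sulfate assimilation and methionine synthesis, which are switched on together by Met4 with Cbf1, were mostly lower. Of 29 tested, 21 fell, against 12% of all genes, 1 rose and 7 did not pass, with a median of -0.20, and the 12-library fit called 8 lower. SUL2, a sulfate permease, had 228, 228 and 208 CPM with EtOH and 155, 168 and 162 CPM with E2, and fell by 0.45 (SE 0.04, edgeR adjusted p = 4.12e-10). MET3, the ATP sulfurylase that begins assimilation, fell by 0.35 from 338 ± 2.54 to 265 ± 6.46 CPM. MET16, which reduces the activated sulfate, had 164, 161 and 163 CPM with EtOH and 134, 125 and 126 CPM with E2, and STR3, a cystathionine lyase, fell by 0.34. By comparison, 17 of the 29 rose and 0 fell in the reference strain (18 and 2 without EtOH replicate 3), with a median of 0.36, and the difference was below 0 for 18 (19 without that library), as for SUL2, at -0.45 against 0.89. That strain is labelled met15-delta-0, which blocks sulfide incorporation, and the S10D label does not list this allele.

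The Cbf1 motif CACGTGA lay in 9 of 29 promoters of the list, against 4.78% of promoters of genes called lower, 2.58% of those called higher and 2.64% of all. MET16 (chrXVI:877633-877932, minus strand) is shown with its match in capitals, which begins 179 bases before the start and reads on the opposite strand.
MET16 promoter: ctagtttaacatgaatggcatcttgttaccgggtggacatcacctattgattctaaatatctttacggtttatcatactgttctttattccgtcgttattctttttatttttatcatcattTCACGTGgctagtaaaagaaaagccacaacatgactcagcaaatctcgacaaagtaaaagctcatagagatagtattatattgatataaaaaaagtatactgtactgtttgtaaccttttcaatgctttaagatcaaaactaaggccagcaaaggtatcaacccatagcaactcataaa

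Amino acid biosynthesis genes fell across several pathways, and most strongly in arginine synthesis by the medians. Of 9 arginine genes 8 fell and 0 rose, against 12% and 11.5% of all genes. Their median was -0.33, and 6 were called lower in the 12-library fit. ARG1, argininosuccinate synthetase, lay at 386 ± 5.04 CPM with EtOH and 259 ± 6.03 CPM with E2 (SD, n = 3 each), and fell by 0.57 (SE 0.03, edgeR adjusted p = 5.4e-15). ARG3, ornithine carbamoyltransferase, fell by 0.55 from 148 ± 1.75 to 101 ± 1.33 CPM. ARG4, argininosuccinate lyase, had 349, 335 and 336 CPM with EtOH and 252, 254 and 253 CPM with E2, and fell by 0.43. In the reference strain 3 of the 9 rose and 0 fell (7 and 0 without EtOH replicate 3), and the difference was below 0 for 6 (8 without that library).

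In the other pathways 4 of 7 histidine genes, 8 of 14 aromatic, 7 of 13 branched-chain and 3 of 10 lysine genes fell and 0 rose, with medians of -0.15, -0.12, -0.08 and -0.06. Over all genes 12% fell and 11.5% rose. HIS4, a multifunctional histidine enzyme, fell by 0.38 from 368 ± 6.92 to 284 ± 0.72 CPM, and in the reference strain it fell by 0.39. HIS3 and LEU2 are markers in the genotype, so their values are not those of the native genes alone; they fell by 0.23 and 0.19. The 12-library fit called 3 histidine, 1 aromatic, 0 branched-chain and 0 lysine genes lower. Among amino acid permeases 7 of 19 fell and 2 rose: MUP1, the high-affinity methionine permease, fell by 0.33 from 1432 ± 54.2 to 1136 ± 17.8 CPM, and PUT4, the proline permease, rose by 0.33.

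Gcn4, the activator of amino acid biosynthesis, binds TGACTCA. That motif was found in 4 of 9 arginine promoters, against 6.38% of promoters of genes called lower, 2.28% of those called higher and 2.71% of all. ARG4 (chrVIII:141403-141702, minus strand) is shown as the example with a match, beginning 179 bases before the start.
ARG4 promoter: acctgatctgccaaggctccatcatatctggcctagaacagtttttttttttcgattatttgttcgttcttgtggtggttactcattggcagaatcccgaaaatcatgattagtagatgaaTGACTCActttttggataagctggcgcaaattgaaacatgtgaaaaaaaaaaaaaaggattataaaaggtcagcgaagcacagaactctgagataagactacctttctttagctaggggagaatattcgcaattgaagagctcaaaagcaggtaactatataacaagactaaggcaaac

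Proteasome subunit genes fell slightly. Of 33 tested, 23 fell and 3 rose, against 12% and 11.5% of all genes. The other 7 did not pass, and the median was -0.12. PRE3, a catalytic core subunit, had 412, 434 and 427 CPM with EtOH and 365, 366 and 372 CPM with E2, and fell by 0.21 (SE 0.03, edgeR adjusted p = 3.46e-06); the core subunits PUP1 and PRE6 each fell by 0.17. RPT2, an ATPase of the regulatory particle encoded on chromosome IV, rose by 0.20 from 682 ± 1.75 to 783 ± 2.12 CPM. The 12-library fit called 1 of the 33 lower, and in the reference strain 2 fell and 6 rose (6 and 7 without EtOH replicate 3). The reference median was nevertheless below 0, at -0.09 (-0.03 without that library). The difference between strains was below 0 for 6 and above 0 for 0 of the 33 (10 and 0 without that library). For PRE3 the reference log2 fold change was -0.25 and the difference 0.04, not past the test.

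The proteasome element bound by Rpn4, GGTGGCAAA, was present in 27 of the 33 promoters and in 1.27% of all, so that it marks the list whether or not a gene fell. It lay in 4.93% of promoters of genes called lower and in 1.21% of those called higher. PRE3 (chrX:434863-435162, plus strand) carries it 118 bases before the start.
PRE3 promoter: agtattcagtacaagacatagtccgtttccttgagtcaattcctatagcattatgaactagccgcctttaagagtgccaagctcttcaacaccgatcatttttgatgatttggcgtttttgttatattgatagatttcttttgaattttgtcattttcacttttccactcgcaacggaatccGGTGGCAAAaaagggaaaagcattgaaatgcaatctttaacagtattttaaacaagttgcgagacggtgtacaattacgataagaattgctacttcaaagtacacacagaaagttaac

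Ribosome biogenesis factors, which build ribosomal subunits in the nucleolus, rose. Of 78 tested, 44 rose, 1 fell and 33 did not pass, against 11.5% of all genes called higher; 71 lay above 0 and the median was 0.11. UTP20, a component of the small-subunit processome, had 301, 305 and 311 CPM with EtOH and 403, 442 and 447 CPM with E2, and rose by 0.50 (SE 0.03, edgeR adjusted p = 6.34e-12), or by 0.38 with the gene length offset. RRP5, needed for both subunits, rose by 0.29 from 319 ± 8.88 to 389 ± 15.8 CPM, KRR1 by 0.25 and ARX1, an export factor of the large subunit, by 0.22. With the length offset 42 of the 78 rose, and in the 12-library fit 11. The reference strain had 19 higher and 2 lower (25 and 9 without EtOH replicate 3), with a median of 0.09 (0.05 without that library). The difference between strains was above 0 for 6 and below 0 for 8 of the 78 (16 and 10 without that library).

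The list is known for the PAC and RRPE promoter elements. RRPE, searched as AAAATTTT, which reads the same on both strands, lay in 64 of the 78 promoters, in 21.2% of promoters of all genes called higher, in 5.36% of those called lower and in 9.89% of all. PAC, searched as GCGATGAG, lay in 45 of the 78, in 9.26% of those called higher, 1.01% of those called lower and 4.34% of all.

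RNA polymerase subunit genes gave 9 of 31 higher and 0 lower, against 11.5% and 12% of all genes, with a median of 0.05. RPA190, the largest subunit of RNA polymerase I, rose by 0.22 and RPC11, a subunit of RNA polymerase III, by 0.31. Cytoplasmic ribosomal protein genes went the other way. Of 138 tested, 75 fell and 9 rose, with a median of -0.08 (58 fell and 11 rose with the length offset, and 1 fell and 0 rose in the 12-library fit). RPS9A fell by 0.48 from 217 ± 3.82 to 156 ± 2.15 CPM and RPL7B by 0.28; both have a second, nearly identical copy with which reads may be shared. Of the same 138, 118 fell and 0 rose in the reference strain (126 and 0 without EtOH replicate 3), with a median of -0.53, and the difference was above 0, a less negative S10D response, for 113 (128 without that library). Among genes called both in the S10D comparison and in the difference, RPL42B and RPS12 had 2 of the most positive differences, 1.05 and 1.04. Of 56 mitochondrial ribosomal protein genes, 2 rose and 0 fell.

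General stress genes, which Msn2 and Msn4 activate through the stress response element, changed in both directions. Of 34 tested, 10 rose and 5 fell, against 11.5% and 12% of all genes, with a median of 0.08. HSP12, a membrane-protecting stress protein, had 700, 731 and 718 CPM with EtOH and 948, 893 and 923 CPM with E2, and rose by 0.36 (SE 0.03, edgeR adjusted p = 4.04e-11). PHM7 rose by 0.41, SPI1, a cell wall protein, by 0.43 and USV1, a transcription factor, by 0.43. Of these 34, 25 rose and 0 fell in the reference strain (30 and 1 without EtOH replicate 3), with a median of 0.76; the difference was below 0 for 23 (28 without that library), with a difference of -0.88 for HSP12 on the log2 scale. The 12-library fit called 5 of the 34 higher and 1 lower in the S10D strain.

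Heat shock chaperone genes gave 7 of 26 higher and 2 lower, where 11.5% of all genes were higher and 12% lower. The 12-library fit called 1 higher and 1 lower. In the reference strain 19 of the 26 rose and 0 fell (24 and 0 without EtOH replicate 3), with a median of 0.53. The difference was below 0 for 17 (23 without that library). HSP26, a small heat shock protein, fell by 0.19 from 560 ± 23.3 to 492 ± 8.93 CPM, while in the reference strain it rose by 1.23; the difference was -1.42 (SE 0.07, edgeR adjusted p = 2.94e-08). SSA3, a stress-induced chaperone of the HSP70 family, rose by 0.20. Its call was lost in the 12-library fit (edgeR adjusted p = 0.161) and without E2 replicate 3. Of 9 trehalose genes 3 rose and 1 fell: beside TSL1, TPS3 rose by 0.23 and TPS1, the synthase itself, by 0.10, while TPS2, the phosphatase, fell by 0.11. The 12-library fit called 1 of the 9 higher and 0 lower; TPS1, TPS2 and TPS3 lost their calls there (edgeR adjusted p = 0.648, 0.76 and 0.0778), TPS1 also without EtOH replicate 1 or E2 replicate 3 and TPS2 with DESeq2 or without EtOH replicate 1 or E2 replicate 2. Of 13 glycogen genes 5 rose and 0 fell, among them GDB1, the debranching enzyme, from 164 ± 5.35 to 219 ± 2.75 CPM, and GLC3, the branching enzyme, by 0.32. Pentamer matches to the stress response element, AGGGG, lay in 28.1% of promoters of genes called higher, 25.4% of those called lower and 22.6% of all. TSL1 (chrXIII:70324-70623, plus strand) has 3, beginning 231, 179 and 165 bases before the start.
TSL1 promoter: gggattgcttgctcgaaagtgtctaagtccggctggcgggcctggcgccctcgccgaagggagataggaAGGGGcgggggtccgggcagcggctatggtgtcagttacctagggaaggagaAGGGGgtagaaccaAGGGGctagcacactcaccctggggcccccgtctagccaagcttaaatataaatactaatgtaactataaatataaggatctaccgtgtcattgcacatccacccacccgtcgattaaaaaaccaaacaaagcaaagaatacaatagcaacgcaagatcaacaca

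**Figure D3:**
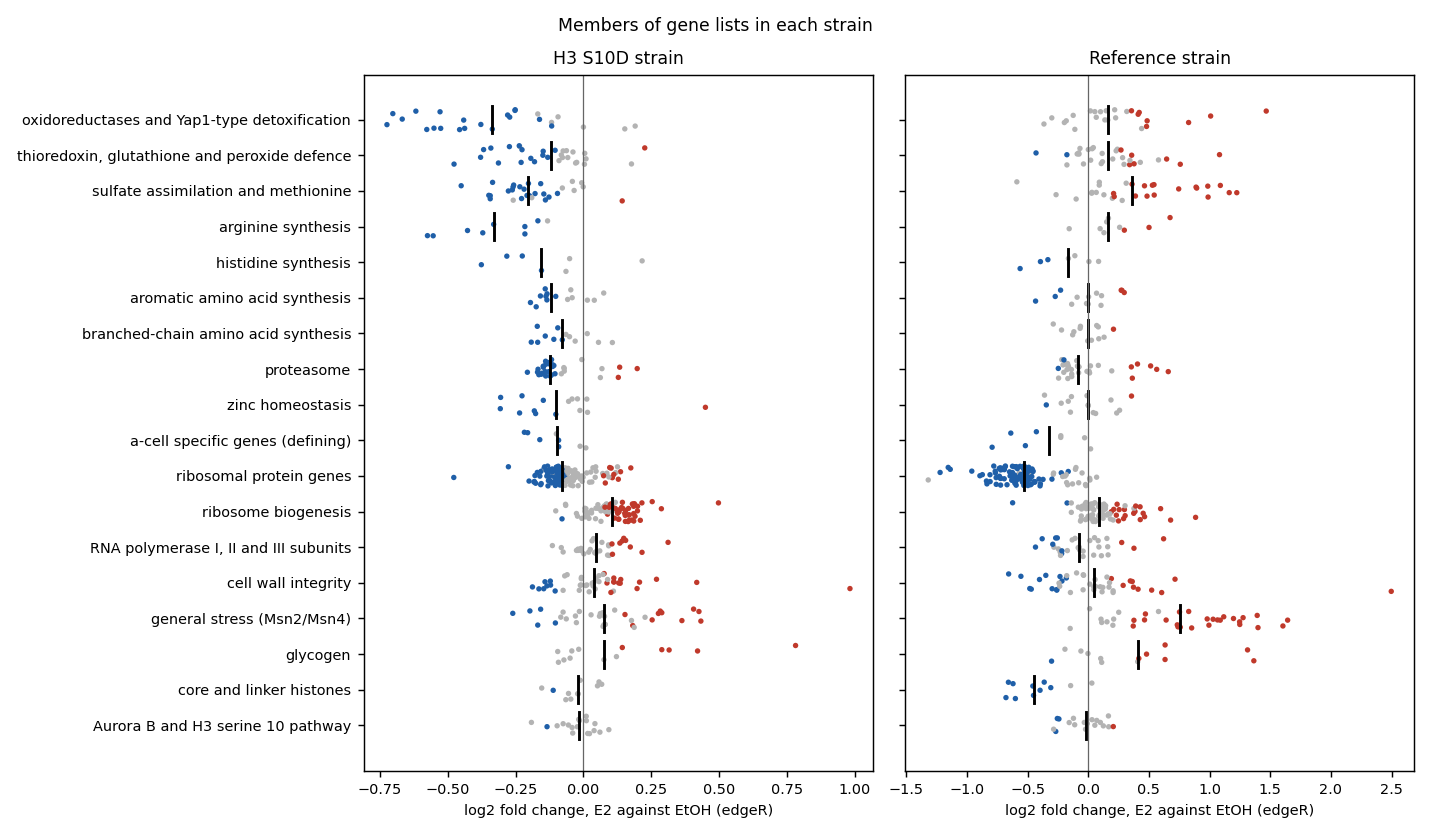
Log2 fold change, E2 against EtOH, of every tested member of 18 gene lists in the S10D strain and in the reference strain; the 2 horizontal axes differ in scale. Red points rose and blue points fell at an edgeR adjusted p under 0.05, grey points did not pass, and black bars are list medians, -0.34 for the oxidoreductases and 0.11 for ribosome biogenesis in the S10D strain.

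Cell wall integrity genes gave 14 of 43 higher and 8 lower, and 4 and 1 in the 12-library fit. The shares over all genes were 11.5% higher and 12% lower. CWP1, a mannoprotein of the wall, had 206, 202 and 202 CPM with EtOH and 279, 271 and 266 CPM with E2, and rose by 0.42 (SE 0.03, edgeR adjusted p = 3.19e-11), and SLT2, the MAP kinase of the pathway, rose by 0.27. Within the eisosome and SUR7 family, YNL194C and EIS1 rose while its relatives FMP45 and SUR7 fell, by 0.25 and 0.19. FMP45 and SUR7 were not called in the 12-library fit (edgeR adjusted p = 0.119 and 0.155). FMP45 also lost its call with DESeq2 and without EtOH replicate 2 or 3 or E2 replicate 1 or 2. The family members are similar in sequence. Of 31 tested genes of meiosis and sporulation, 6 rose and 0 fell, and their summed level was 481 to 506 CPM with EtOH and 526 to 559 CPM with E2. IME2, a kinase that starts meiosis, rose by 0.48 with edgeR adjusted p = 0.000914, while IME1, its activator, had a log2 fold change of -0.01 and NDT80, the main meiotic transcription factor, one of -0.13, neither past the test.

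Markers of both mating types were examined against the MATa label. Of 8 genes that define a cells, all were detected and 5 fell, among them AGA2, an agglutinin, by 0.22, MFA2, a pheromone gene, by 0.21 and STE2, the receptor for alpha factor, by 0.16; their summed level was 2447 to 2506 CPM with EtOH and 2249 to 2302 CPM with E2. Of 4 genes that define alpha cells, MF(ALPHA)1 and MF(ALPHA)2 were at or below 1.51 CPM in every S10D library, STE3 lay between 4.04 and 6.47 CPM, and SAG1 between 41.2 and 47.6 CPM; the 2 that were tested, STE3 and SAG1, had log2 fold changes of 0.03 and 0.00, not past the test. The part of other cell states in the results was not tested. Of 28 tested pheromone response genes 4 rose and 3 fell, near the 11.5% higher and 12% lower of all genes.

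Metal and lipid genes held some of the other clear falls. Their counts read against 12% lower and 11.5% higher over all genes. Of 15 zinc homeostasis genes 8 fell and 1 rose (3 and 1 in the 12-library fit): ZRT1, the high-affinity zinc transporter, fell by 0.31 from 1650 ± 34.6 to 1334 ± 42.7 CPM and ZAP1, the activator of the zinc genes, by 0.24. FET4, a low-affinity transporter of iron and zinc, rose by 0.45, and it did not in the reference strain (-0.01, edgeR adjusted p = 0.91; difference 0.46). Of 28 iron uptake genes 5 rose and 5 fell, HMX1, the heme oxygenase, by 0.30. Of 28 sterol genes 10 fell and 2 rose, led by ARE2, a sterol acyltransferase, which fell by 0.28, and its partner ARE1, which rose by 0.30. OLE1, the fatty acid desaturase, fell by 0.28 from 2460 ± 57.4 to 2032 ± 74.8 CPM.

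Carbon metabolism genes changed in both directions, where 11.5% of all genes were higher and 12% lower. Of 36 genes of glycolysis, fermentation and gluconeogenesis 13 fell and 9 rose, and 2 and 3 in the 12-library fit. TDH1, a glyceraldehyde-3-phosphate dehydrogenase isozyme with near-identical relatives, had 1491, 1506 and 1498 CPM with EtOH and 1050, 1077 and 1128 CPM with E2, and fell by 0.47 (SE 0.03, edgeR adjusted p = 7.19e-14). PDC5, a minor pyruvate decarboxylase, rose by 0.50. MIG2, a glucose repressor, fell by 0.50 from 191 ± 11.6 to 135 ± 7.84 CPM and MTH1, a repressor of hexose transporter genes, by 0.36. CYC7, the hypoxic cytochrome c, rose by 0.49 from 111 ± 7.12 to 155 ± 3.21 CPM, and CYC1, the aerobic form, fell by 0.27; in the reference strain the same genes rose by 2.14 and fell by 0.69.

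Genes of the machinery that the design touches were counted against the 11.5% higher and 12% lower of all genes. Of 18 genes of the Aurora B and H3 serine 10 pathway 1 fell, BMH1, which binds phosphorylated proteins, by 0.13, and of 51 kinetochore, checkpoint and anaphase-promoting complex genes 1 rose, APC4, by 0.30. Of 11 core and linker histone genes 1, HHT2, fell, and 0 in the 12-library fit, and the list's median was -0.02. Of the 11, 9 fell and 0 rose in the reference strain, with a median of -0.45, and for 9 the response differed between strains, less negative in the S10D strain; both counts stayed at 9 without reference EtOH replicate 3. Of 21 condensin, topoisomerase II and cohesin genes 4 rose and 0 fell: SCC2, the cohesin loader, by 0.19, YCG1 by 0.16, SMC3 by 0.16 and TOP2 by 0.11. None of the 4 was called in the 12-library fit, and 1 of the 21 was called with the gene length offset.

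Chromosome IV, which carries CEN4, gave 194 of 734 tested genes higher and 51 lower, against 473 and 641 of 4915 on the other nuclear chromosomes; in the 12-library fit 28 rose and 11 fell. The reference strain showed this too, with 247 of 737 higher and 57 lower and a median of 0.13 (317 and 92 of 739, median 0.13, without EtOH replicate 3); the difference between strains was below 0 for 120 and above 0 for 34 of 741. In the S10D strain the median log2 fold change of chromosome IV was 0.07, with 72.3% of its genes above 0. Each of the other 15 nuclear chromosomes had a median from -0.03 to 0.01. Per library, chromosome IV took 12.55%, 12.57% and 12.60% of nuclear counts with EtOH and 13.12%, 13.09% and 13.13% with E2. The rise of 0.54 percentage points exceeded the spread between libraries, and an exact 2-sided permutation test gave p = 0.1, the smallest that 3 against 3 allows. The median of chromosome IV stood 0.082 above that of the other nuclear genes.

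Individual genes of the chromosome moved further. MSH5, a meiotic crossover factor, rose by 0.42, IAT4 by 0.35, HEM13, an oxygen-requiring enzyme of heme synthesis, by 0.33 from 59.1 ± 2.4 to 74.0 ± 2.86 CPM, and BSC1 by 0.32. AAD4 fell by 0.38 from 284 ± 7 to 219 ± 7.01 CPM, MTH1 by 0.36, RAD59, a recombination protein, by 0.32 and HSP31, a methylglyoxalase and chaperone, by 0.31. MSH5, IAT4, BSC1 and RAD59 were not called in the 12-library fit. Within 50 kb of CEN4, 11 of 50 genes rose and 3 fell, with a median of 0.06: CDC7, the kinase that fires replication origins, rose by 0.29 from 33.6 ± 1.92 to 41.1 ± 1.31 CPM, and RTK1 fell by 0.20. Near the other centromeres, within 20 kb, 25 of 297 rose and 30 fell, with a median of -0.02. The count near CEN4 reads against the 194 of 734 higher on the whole of chromosome IV, and that near other centromeres against 11.5% higher and 12% lower over all genes.

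Fold changes also rose with gene length. Among genes of at most 600 bp the median was -0.02, and among the 37 genes longer than 6000 bp it was 0.19, with 24 higher and 0 lower. Across 5654 genes of known length the Spearman correlation was 0.16, and it was 0.39 in the reference strain; the genes share the same libraries. The libraries varied among themselves in the long genes: their median deviation was -0.135, -0.085 and -0.074 in the EtOH libraries and 0.017, 0.142 and 0.119 in the E2 libraries. The part of this trend in the changes of long genes such as REA1 was not tested beyond the length offset. Within each length class the median of chromosome IV lay above that of the other chromosomes, by 0.066 to 0.083, although the longest class holds 4 genes of chromosome IV, and the difference was 0.078 with the length offset.

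**Figure D4:**
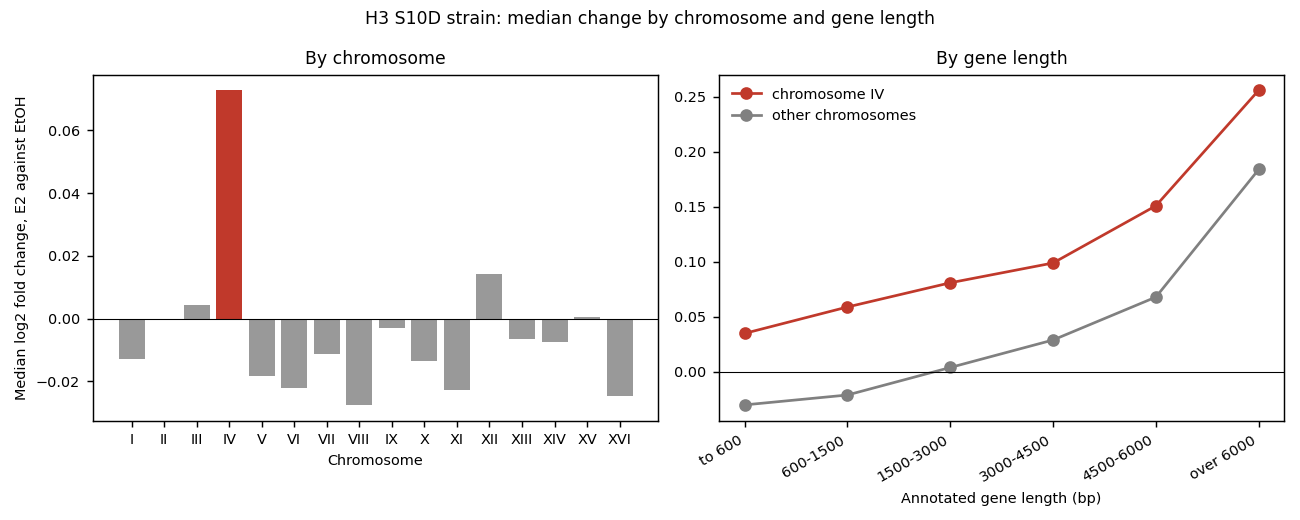
Median log2 fold change, E2 against EtOH, in the S10D strain, by chromosome (bars, chromosome IV in red) and by annotated gene length in bp for chromosome IV and for the others (points). Chromosome IV stands at 0.07 with the others near 0, and both lines rise with length while staying apart.

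The strains can be set side by side without shared libraries. Of 5937 genes tested in the reference strain, 1843 (31%) were called, 974 higher (16.4%) and 869 lower (14.6%), and in 48.8% its E2 and EtOH libraries did not overlap. Of 5797 genes tested in both strains, 1369 were called in the S10D strain and 1826 in the reference strain, and 617 were called in both in the same direction, 355 higher and 262 lower. That is 45.1% of the S10D calls and 33.8% of the reference calls. Another 81 were called in opposite directions, of which 74 fell in the S10D strain and rose in the reference strain. Across genes the Pearson correlation of the log2 fold changes was 0.35, a description, since genes are not independent replicates. For the 617 shared calls the median ratio of the S10D to the reference log2 fold change was 0.39.

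The test of the difference called 1224 of 5990 genes (20.4%), 588 with an S10D minus reference difference above 0 (9.82%) and 636 with one below 0 (10.6%), whatever the sign of either response. Without reference EtOH replicate 3 it called 1994. Among genes called both in the difference and in the S10D comparison, the most negative differences were those of FRM2 (-2.18), VTH2 (-2.07), PRM7 (-2.06), BSC1 (-1.97) and CYC7 (-1.65). VTH2 was near the lower limit of detection, at 1.63 ± 0.275 CPM with EtOH and 0.78 ± 0.24 CPM with E2, and its S10D call was lost without EtOH replicate 2 (edgeR adjusted p = 0.119), E2 replicate 1 (0.102) or E2 replicate 2 (0.077); it also has a near-identical copy, VTH1. PRM7 and BSC1 are neighbours on chromosome IV. Over all libraries, and among genes called in both comparisons, the most positive differences were those of SNR190 (1.93), a small nucleolar RNA, RPL42B (1.05), RPS12 (1.04), RPS28B (1.01) and HMS2 (0.89). HMS2, a relative of heat shock transcription factors, fell by 0.25 in the S10D strain, with a reference log2 fold change of -1.15. SNR190 had 2.87, 3.89 and 4.22 CPM with EtOH and 14, 11.2 and 6.17 CPM with E2, and its S10D call was lost when any EtOH library or E2 replicate 2 was left out (edgeR adjusted p = 0.0505 to 0.109). Poly(A) selection captures such RNAs poorly. Without reference EtOH replicate 3 the differences were 1.71 for SNR190, 0.81 for RPL42B, 0.74 for RPS12, 0.67 for RPS28B and 0.91 for HMS2, so that HMS2 came before the ribosomal protein genes. The negative differences were then -2.27 for FRM2, -1.85 for CYC7, -1.74 for PRM7, -1.66 for VTH2 and -1.63 for BSC1.

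**Figure D5:**
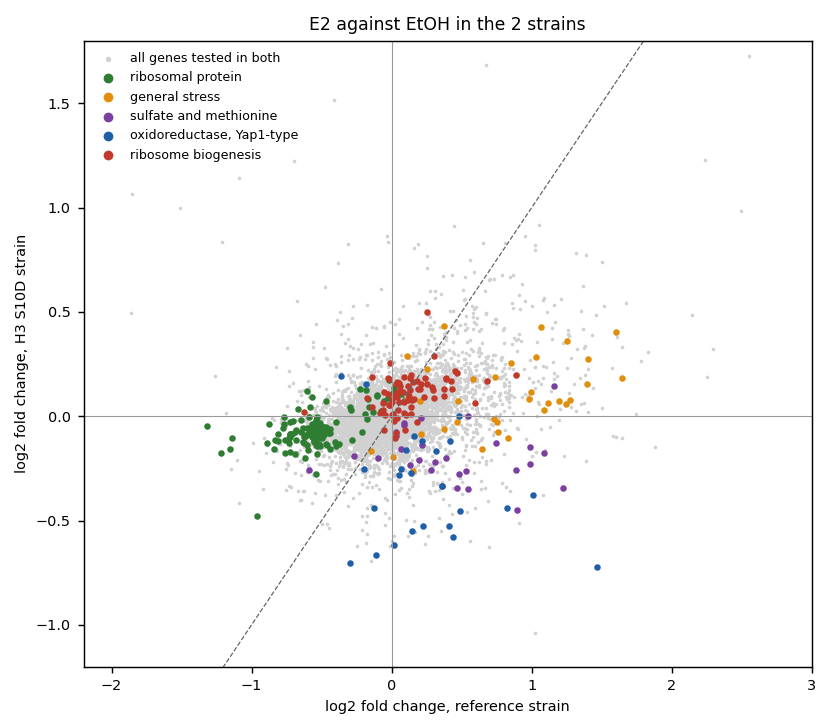
Log2 fold change, E2 against EtOH, of 5797 genes in the reference strain (horizontal) and in the S10D strain (vertical), each from its own 6 libraries; the dashed line marks equal responses. General stress genes spread far to the right and little upwards, ribosomal protein genes lie to the left near 0, and many oxidoreductase and sulfate genes lie below 0 on the vertical axis and above 0 on the horizontal one.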

How the data were processed

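Poly(A) RNA was sequenced from 12 yeast libraries, 3 in each of 4 groups. The deposited table holds raw read counts per gene made by the authors, 7127 features, and 0 of its columns were left unmapped to a sample. Per the submitters' processing notes, bcl2fastq 2.20.0.422, cutadapt 1.10, STAR 2.5.3a and HTSeq 0.6.1p1 were used with build R64; the strand setting and the treatment of reads that match several genes are not given in the sources used here. Without a stated strand setting, overlapping and antisense genes cannot be told apart. Total counts per library were 9362173 to 11806239; counting error is part of the spread between libraries that the test measures.

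The main comparison was fitted on the 6 S10D libraries with edgeR 4.0.16 (R 4.3.3; TMM scaling, filterByExpr with a minimum count of 10, quasi-likelihood test, Benjamini-Hochberg adjustment over all genes tested, threshold 0.05). The reference strain was fitted on its own 6 libraries and the difference between strains on all 12. Alternatives were DESeq2 1.42.0, other scalings and filters, the replicate block, fits on 12 or 11 libraries, each library left out and, added after seeing the data, a gene length offset. The procedure was tested on simulated data. Genes were named as the 14 largest changes in each direction among called genes whose mean reached 10 CPM and whose conditions did not overlap, the largest on chromosome IV and in the difference between strains, and the leading members of each list. Those named by the difference had to be called both in it and in the S10D comparison. The members and lists were chosen with earlier results of these data known. Samples with the same replicate number share only the number: their deviations correlated at 0.0827, 0.039 and 0.0905. Promoters are the 300 bases before the start codon in RefSeq R64. A few items are not reported here.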

Additional observations from a re-analysis of the deposited data

Results flagged for a closer look

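By the edgeR test of the difference itself, the response to E2 differed between the S10D and the reference strain in 32 of 44 genes. These 44 were named by size of change, by position or by the difference, and 20.4% of all genes passed the same test. Genes named by the difference had to pass it, so their place here was fixed in advance. SNR190, RPL42B, RPS12, RPS28B, HMS2, VTH2, PRM7 and CYC7 are here by that rule alone. The values in parentheses are the S10D minus the reference log2 fold change. In 12 genes the S10D change was below 0 and the reference change above 0: FRM2 (-2.18), ATR1 (-0.63), OYE3 (-1.01), ARG1 (-0.83), ARG3 (-0.72), GTT2 (-0.69), YML131W (-0.94), AAD6 (-0.75), YLR108C (-1.42), AAD4 (-1.38), RAD59 (-0.82) and VTH2 (-2.07). In 2 genes it was the other way round: SIT1 (0.69) and SNR190 (1.93). These groups go by sign alone. The reference change itself did not pass for ATR1, OYE3, ARG1, ARG3, GTT2, AAD6 and VTH2 (edgeR adjusted p = 0.0503 to 0.898). Nor did it pass for SIT1 (edgeR adjusted p = 0.362) or SNR190 (0.125).

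Both strains lay above 0 in YNL194C (-1.01), SHC1 (-1.51), SGA1 (-0.53), INO1 (-0.76), TSL1 (-0.74), AMA1 (-0.52), BSC1 (-1.97), PRM7 (-2.06) and CYC7 (-1.65). Both lay below 0 in HBN1 (-0.40), FLR1 (-0.55), ATG41 (-0.61), ARO5 (-0.33), MTH1 (0.27), RPL42B (1.05), RPS12 (1.04), RPS28B (1.01) and HMS2 (0.89). The reference change of HBN1, FLR1, ATG41 and ARO5 did not itself pass (edgeR adjusted p = 0.0536 to 0.949). Of the 32, 0 lost the call when reference EtOH replicate 3 was left out. The strains differ at many loci, so the part of the H3 construct in these differences cannot be told apart from that of the other alleles.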

How the results depend on the processing

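Over the 6 S10D libraries DESeq2 called 881 genes (397 higher, 484 lower), 875 of them among the 1370, and the fit on all 12 libraries 273. Asking also for a change of 0.5 or more on the log2 scale left 68. The count ran from 947 to 1280 with 1 library left out. With the replicate number as a block it was 1646, including all 1370, and the share of chromosome IV kept its difference of 0.5418 points with an exact p of 0.25; the block gave 1649 calls in the reference strain and 1212 in the difference. TMM factors without chromosome IV gave 742 higher and 609 lower, against 670 and 700. Leaving out 1 library gave 1045 to 2818 calls in the reference strain, 2818 without EtOH replicate 3 and 1171, 1058 and 1045 without E2 replicates 1, 2 and 3, and 906 to 1994 in the difference, 1994 without reference EtOH replicate 3. The excess of the chromosome IV median was 0.0745 to 0.0846 with 1 library left out and 0.0777 with the gene length offset, which was added after seeing the data. The difference in share ran from 0.5326 to 0.5532 points. No called result changed sign. Of 210 named called genes 98 kept the call in every setting that tested them, of up to 15. The other 112 lost it in at least 1, 109 of them with 12 libraries, 35 with DESeq2 and 6 with the length offset. The causes were not tested.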
